A study of Mus musculus with 214 samples.

Results

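Transcripts of 9 genes of interferon signalling were followed in mouse liver: the signal transducers Stat2 and Stat3, the interferon regulatory factors Irf1, Irf7, Irf8 and Irf9, the feedback genes Usp18 and Socs1, and the receptor subunit Ifngr1. They were taken by symbol and all 9 were found among the 18647 genes of the WT data and among the 19540 genes of the Mgmt-/- data. The livers came from C57BL/6 mice that all carried the RaDR and gpt reporter transgenes (labelled RaDR+/+;GPT+/+), here called WT, and from mice that also lacked Mgmt, here called Mgmt-/-. MGMT is the protein that removes methyl groups from the O6 position of guanine. Pups of both sexes were injected into the peritoneum with N-nitrosodimethylamine (NDMA), a methylating liver carcinogen, at 3.5 mg/kg on day 8 of life and at 7 mg/kg on day 15, or with saline on the same days. After the second injection, livers were taken at 1, 2 and 5 days, at 10 weeks and at 10 months. The numbers of NDMA livers at these 5 times were 26, 8, 8, 8 and 13 in WT and 12, 8, 8, 8 and 13 in Mgmt-/-, and those of saline livers were 21, 8, 7, 8 and 10 in WT and 12, 7, 6, 8 and 12 in Mgmt-/-. Each library came from a single mouse. By the study's methods treatments were assigned by litter at birth, controls were littermates, and several litters were sampled where that could be done. The labels give no litter, so the part of litter in the differences was not tested. The labels call every sample liver and do not say whether a sample taken at 10 months held tumour tissue.

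The labels were checked against transcripts that mark them. The Mgmt transcript had a median of 45.8 normalized counts over the WT libraries (range 13 to 130) and of 1.15 over the Mgmt-/- libraries used (range 0 to 9.67). The mean of 5 hepatocyte transcripts was between 15870 and 76130 in WT and between 17200 and 85440 in the Mgmt-/- libraries used, whereas the mean of 5 kidney transcripts did not pass 4.30 in these libraries. In 2 Mgmt-/- saline libraries of day 5 the kidney mean was 4432 and 4983 and the hepatocyte mean was 319 and 470, against their label, and both were left out. In 2 WT NDMA libraries of day 1 the transcripts of sex-linked genes went against the labelled sex, and these were kept. The reads per library ranged from 150038 to 4791649 in WT (median 1710016) and from 713584 to 7740710 in Mgmt-/- (median 2347670). A normalized count is the number of reads of a gene divided by 1 size factor per library. The libraries read transcript ends, so levels are compared between samples of 1 gene and not between genes, and each genotype was normalized by itself.

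Interferons bind receptors on the cell surface, whose JAK kinases phosphorylate STAT proteins. Type I interferons act through STAT2 and its partner IRF9, which together with a further STAT bind the interferon-stimulated response element, while interferon gamma acts through IFNGR1 and a STAT dimer that binds the gamma-activated site. IRF1, IRF7 and IRF8 are transcription factors that are themselves induced and carry the response on, and USP18 and SOCS1 are induced brakes that act at the receptors and their kinases. In liver, hepatocytes, Kupffer cells and incoming leukocytes all respond to interferon, and IRF8 is best known as a factor of macrophages, dendritic cells and B cells.

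The promoters of the 3 members below are shown because 2 of them, Irf1 and Irf8, moved together over single livers, and because the third, Stat2, did not pass the test after NDMA and holds a match to the other element. Each run is 300 bases from RefSeq (build GRCm38.p6, gene strand, 5′ to 3′), from 250 bases before to 50 after the start of transcription, and capitals mark the motif matches. The windows are chr11:53769764-53770063 for Irf1, chr8:120736108-120736407 for Irf8 and chr10:128270248-128270547 for Stat2, all on the plus strand. The gene positions given below come from another annotation, GENCODE, whose starts differ for some members. The Stat2 window ends before the Stat2 gene start given there, and both Irf9 windows begin after that of Irf9.
Irf1: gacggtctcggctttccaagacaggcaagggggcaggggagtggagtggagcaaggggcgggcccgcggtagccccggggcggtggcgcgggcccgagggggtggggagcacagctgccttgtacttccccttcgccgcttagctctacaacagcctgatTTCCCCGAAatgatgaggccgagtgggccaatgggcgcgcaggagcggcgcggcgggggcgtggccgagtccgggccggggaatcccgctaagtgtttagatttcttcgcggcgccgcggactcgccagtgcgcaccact
Irf8: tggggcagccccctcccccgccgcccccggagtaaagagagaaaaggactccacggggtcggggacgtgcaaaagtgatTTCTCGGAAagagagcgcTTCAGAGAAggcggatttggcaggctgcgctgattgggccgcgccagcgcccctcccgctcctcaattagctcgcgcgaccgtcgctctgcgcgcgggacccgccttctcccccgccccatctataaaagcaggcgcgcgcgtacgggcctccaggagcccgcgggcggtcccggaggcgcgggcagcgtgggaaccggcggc
Stat2: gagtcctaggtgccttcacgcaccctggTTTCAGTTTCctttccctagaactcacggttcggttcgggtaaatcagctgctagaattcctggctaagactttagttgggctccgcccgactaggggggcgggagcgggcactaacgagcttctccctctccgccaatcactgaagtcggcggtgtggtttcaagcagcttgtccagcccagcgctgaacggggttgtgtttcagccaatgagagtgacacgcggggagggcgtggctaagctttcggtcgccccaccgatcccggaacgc
Of the 9 members, 8 had windows in the RefSeq table, 11 windows in all, and Usp18 had none. The search used the core of the gamma-activated site, TTCNNNGAA, which reads the same on both strands, and the core of the interferon-stimulated response element, GAAANNGAAA, which was searched on both strands. The gamma-activated site core occurred once in the first Irf1 window, at positions -90 to -82 from the start, and in 2 places in the first Irf8 window, at -171 to -163 and -153 to -145. The response element core occurred once in the Stat2 window, on the minus strand at -222 to -213, and in 2 overlapping places in the Socs1 window, on the plus strand. The windows of Stat3, Irf7, Irf9 and Ifngr1 and the second windows of Irf1 and Irf8 held neither set of letters. Of all 32544 promoter windows of this length, 8.33% held the gamma-activated site core and 3.45% the response element core. A match of these letters is a description of the sequence and not a bound site.

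Irf1 and Irf8 were the members with the largest differences after NDMA in Mgmt-/- liver on day 2. Irf1 (chr11:53770014-53778374, plus strand) codes for an activator of interferon-induced genes. Its normalized counts on day 2 ranged from 114 to 221 (median 155) over the 8 Mgmt-/- NDMA livers and from 24.2 to 63.8 (median 40.7) over the 7 saline livers. Every NDMA liver lay above every saline liver. The log2 fold change, on the scale of log2(normalized count + 1) as everywhere below, was 1.88 ± 0.17 (SE), a 3.69-fold difference (limma adjusted p = 2.97e-09). On day 5 the NDMA livers held 111 to 178 (median 145) and the saline livers 31.7 to 68.1 (median 46.3), again with no overlap, and the log2 fold change was 1.56 ± 0.16 (limma adjusted p = 4.86e-08). On day 1 the groups overlapped, with a median of 99.5 (45.2 to 214) after NDMA and of 52.6 (36.7 to 100) after saline, and 5 of 12 NDMA livers lay above the highest saline liver. The log2 fold change then was 0.99 ± 0.19 (limma adjusted p = 0.000177). At the late times the medians were 52.5 and 54.5 after NDMA and 48.5 and 53.3 after saline, and the differences of 0.17 ± 0.18 (week 10) and 0.34 ± 0.20 (month 10) did not pass the test (limma adjusted p = 0.63 and 0.292).

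Irf8 (chr8:120736358-120756694, plus strand) rose more. On day 2 its normalized counts ranged from 37.2 to 74.4 (median 61.4) after NDMA and from 6.17 to 17.9 (median 12.0) after saline in Mgmt-/- liver, and on day 5 from 44.3 to 79.5 (median 62.5) and from 9.86 to 20.4 (median 15.6). No NDMA liver of either day overlapped the saline range, and the log2 fold changes were 2.20 ± 0.21 and 1.91 ± 0.18, that is 4.61-fold and 3.77-fold (limma adjusted p = 5.53e-09 and 1.46e-08). On day 1 the medians were 47.8 and 16.6, with 7 of 12 NDMA livers above the saline range and the difference was 1.39 ± 0.28 on the log2 scale (limma adjusted p = 0.000255). Unlike Irf1, Irf8 also passed the test late. At week 10 the NDMA livers held 9.16 to 25.6 (median 15.4) and the saline livers 0 to 10.6 (median 7.28), with 7 of 8 NDMA livers above the saline range and the difference was 1.49 ± 0.41 (limma adjusted p = 0.0169). The saline libraries of that time held between 0 and 10 Irf8 reads, so these levels rest on few reads. At month 10 the medians were 17.4 and 9.32 and the log2 fold change was 0.85 ± 0.26 (limma adjusted p = 0.0333), while 1 of 13 NDMA livers lay above the highest saline liver. This last call was lost without sex and batch terms (adjusted p = 0.0502) and with equal library totals (adjusted p = 0.0517). In the order of the 10 Mgmt-/- group medians of Irf8, the 3 early NDMA groups came first and the gap from day 1 to the next group, NDMA at month 10, was the only one between neighbours in which the means differed by more than the larger of their SDs.

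Irf7 (chr7:141262706-141266481, minus strand) encodes the factor that amplifies type I interferon production. In Mgmt-/- liver its median level after NDMA was 83.3, 129 and 187 on days 1, 2 and 5, against 35.2, 45.1 and 54.7 after saline. On day 2 the NDMA range was 78.7 to 203 and the saline range 36.4 to 73.1, and on day 5 the ranges were 127 to 280 and 36.4 to 84.3, so that the groups did not overlap on either day. The log2 fold changes were 1.17 ± 0.23, 1.38 ± 0.20 and 1.78 ± 0.19 in the order of the days (limma adjusted p = 0.000183, 8.76e-06 and 2.49e-07). At week 10 the value was 0.60 ± 0.21 and missed the test (limma adjusted p = 0.0704), with 5 of 8 NDMA livers above the saline range. It passed with DESeq2 (0.64, adjusted p = 0.0384), with equal library totals (0.81, limma adjusted p = 0.0223) and without the saline liver D209001 (0.63, limma adjusted p = 0.0337). At month 10 the saline livers had their highest median of the 5 times, with 66.3 to 340 (median 166) after NDMA and 40.8 to 193 (median 94) after saline, and the log2 fold change of 0.88 ± 0.22 passed the test (limma adjusted p = 0.00936), though not without sex and batch terms (adjusted p = 0.0597).

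Irf9 (chr14:55603571-55610030, plus strand), which encodes the DNA-binding partner of STAT2, rose on the same days. Its levels on day 2 were 91.9 to 140 (median 112) after NDMA and 45.3 to 57.5 (median 52.8) after saline, and on day 5 they were 96.5 to 130 (median 118) and 32.1 to 78.4 (median 48.7). The groups did not overlap on either day. The log2 fold changes were 0.93 ± 0.15 on day 1, 1.14 ± 0.13 on day 2 and 1.28 ± 0.16 on day 5 (limma adjusted p = 5.82e-06, 1.26e-07 and 1.78e-06). Irf9 did not pass the test at week 10 (0.19 ± 0.23, limma adjusted p = 0.672) and did at month 10, where 10 of 13 NDMA livers (median 48.4) lay above the highest of the 12 saline livers (median 33.0) and the log2 fold change was 0.61 ± 0.15 (limma adjusted p = 0.00936).

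Usp18 (chr6:121245906-121270917, plus strand) encodes a protease that removes the ubiquitin-like protein ISG15 and holds back signalling at the type I interferon receptor. It was called higher at all 5 times in Mgmt-/- liver, and of the other 8 members only Irf8 was as well. The medians after NDMA were 106, 179, 217, 61.6 and 33.3 in the order of the times, and after saline 41.8, 66, 79.7, 22.9 and 13.8. On day 2 the NDMA livers held 128 to 256 and the saline livers 41.2 to 101.4, and on day 5 they held 181 to 261 and 54.7 to 106, with no overlap. At week 10, 6 of 8 NDMA livers (46.1 to 95.5) lay above the highest saline liver (50.9). The log2 fold changes were 1.22 ± 0.17, 1.36 ± 0.17, 1.51 ± 0.15, 1.37 ± 0.24 and 1.16 ± 0.28 (limma adjusted p = 3.8e-07, 8.39e-07, 3.68e-08, 0.000382 and 0.00619), while the median level was highest on day 5 and lowest at month 10 in both treatments. At month 10 the groups overlapped, with 14.5 to 78.9 after NDMA and 6.95 to 42.5 after saline, and 5 of 13 NDMA livers lay above the saline range.

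**Figure D1:**
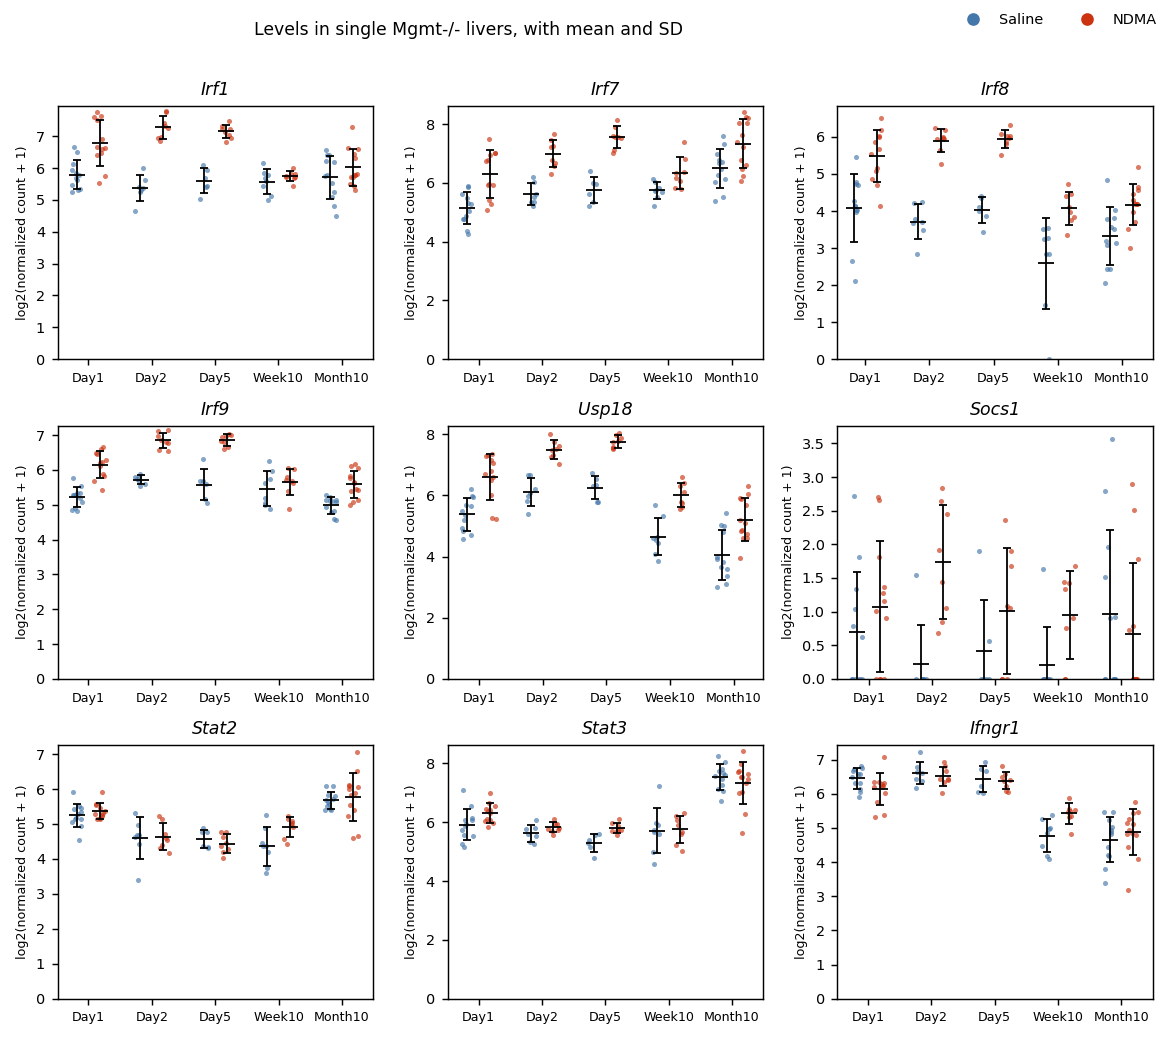
Levels of the 9 genes in single Mgmt-/- livers, as log2(normalized count + 1) on the vertical axis, by time of collection, with saline in blue and NDMA in red. Each point is 1 liver and the black marks are the mean and SD. Irf1, Irf7, Irf8, Irf9 and Usp18 do not overlap between treatments at Day2 and Day5, whereas Stat2, Stat3 and Ifngr1 overlap at every time and Socs1 has group medians of at most 2.25 normalized counts with a single liver as high as 10.9.

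In Mgmt-/- liver 5 of 9 members were thus called higher on each of days 1, 2 and 5, 3 at week 10 and 4 at month 10. Of all genes tested, 9.06% were called higher on day 1, 12.4% on day 2, 11.1% on day 5, 7.27% at week 10 and 4.75% at month 10. A call was an adjusted p under 0.05 with an absolute log2 fold change over 0.58. The same 5 members did not overlap between treatments on day 2 and on day 5, where 6.19% and 6% of all tested genes had every NDMA library above every saline library. The median log2 fold change of the 8 tested members was 1.25 on day 2 and 1.39 on day 5, against 0.03 and 0.03 over all genes. On day 1 the livers came from 2 library batches named in the labels. In the batch with 8 livers a group the 5 called members differed by 1.13 to 1.60 on the log2 scale, and in the batch with 4 a group by 0.45 (Irf1) to 0.98 (Irf8). Days 2 and 5 came from 1 batch and week 10 and month 10 from another, so that comparisons between early and late times cannot be told apart from these batches except through day 1.

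Socs1 (chr16:10782240-10785536, minus strand), the inhibitor of JAK kinases, was close to the limit of these libraries and was tested in none of the 10 comparisons, because its mean stayed under 5 normalized counts. In Mgmt-/- liver 106 Socs1 reads of 118681582 were counted in 31 of 48 NDMA libraries and 36 of 100193514 in 16 of 45 saline libraries. In WT liver the numbers were 96 reads of 122128904 in 32 of 63 NDMA libraries and 28 of 90860338 in 12 of 51 saline libraries. On day 2 the 8 Mgmt-/- NDMA livers held 0.603 to 6.18 normalized counts (median 2.25), from 32 reads of 25153453, while 6 of the 7 saline livers were listed at 0 and the other held 1.91, from 3 reads of 22271623 in the group. In the WT saline livers of days 2 and 5 and week 10 no Socs1 read was counted, which allows up to 3 reads of 7550350, 10883798 and 11607622 (5, 7 and 8 libraries with whole reads, for counting error only). At month 10 the order was the other way in Mgmt-/- liver, with 13 reads of 20894835 after NDMA and 16 of 15230935 after saline. The mean normalized counts there were 1.15 and 1.94. No fold change is given for this gene.

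Stat2 and Stat3 code for the signal transducers of type I interferons and of interleukin 6, and neither was called in any of the 10 comparisons. In 1 WT day 1 batch taken alone, the one of 8 against 8 livers, Stat3 was called higher (0.61, limma adjusted p = 0.0438). Stat2 (chr10:128270559-128292849, plus strand) had medians of 38.7, 22.7, 20.3, 31.2 and 58.4 after NDMA and of 36.4, 24.8, 22.9, 19.7 and 49.5 after saline in Mgmt-/- liver, in the order of the times. The 95% interval of its log2 fold change was -0.40 to 0.55 on day 2 and -0.54 to 0.26 on day 5. The log2 fold change farthest from 0 was 0.56 ± 0.23 at week 10 (limma adjusted p = 0.124), which became 0.68 with an adjusted p of 0.0287 when 1 saline liver, D209001, was left out. For Stat3 (chr11:100885098-100939540, minus strand) the Mgmt-/- medians were 80.4, 54.6, 52.3, 54.3 and 186 after NDMA and 59.3, 47.3, 39.5, 51.5 and 192 after saline. On day 5, 7 of 8 NDMA livers lay above the highest saline liver, and the log2 fold change of 0.51 ± 0.16 had a limma adjusted p of 0.0208 but stayed under the fold threshold. With equal library totals it was 0.66 and passed both limits, as did the value of day 1, at 0.59 (adjusted p = 0.00289 and 0.0245). Both transcripts stood highest at month 10 in both treatments and both genotypes, and between the lower of the 2 month 10 groups and the next group in order the means differed by more than the larger of their SDs in each genotype. In WT liver Stat3 had medians of 96.8 after NDMA and 123 after saline at month 10, and of 24.7 to 52.7 in the 8 earlier groups.

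Ifngr1 (chr10:19591949-19610229, plus strand), the ligand-binding chain of the interferon gamma receptor, was the only member called lower anywhere. In WT liver on day 2 its normalized counts were 26.8 to 72.2 (median 43.0) after NDMA and 48.7 to 102 (median 64.4) after saline, and 6 of 8 NDMA livers lay below the lowest saline liver. The log2 fold change was -0.74 ± 0.21 (limma adjusted p = 0.0338), and 2.91% of all tested genes were called lower in that comparison. The call was lost in 8 of 16 fits that left out 1 liver (adjusted p = 0.0516 to 0.0841) and with depth as a term (adjusted p = 0.173). It was also lost with no filter, without sex and batch terms and with equal library totals (limma adjusted p = 0.0595, 0.0592 and 0.0509). On day 1 the WT medians were 50.8 and 69.1 and the log2 fold change of -0.42 ± 0.10 (limma adjusted p = 0.00123) was under the fold threshold. In the batch of 8 against 8 livers alone it was -0.68 and called (limma adjusted p = 0.000782), and in Mgmt-/- liver it was -0.32 ± 0.12 (limma adjusted p = 0.0528). On days 2 and 5 in Mgmt-/- liver the 95% intervals were -0.42 to 0.22 and -0.39 to 0.28. At week 10 in Mgmt-/- liver Ifngr1 was called higher, with 27.2 to 58.2 (median 43.5) after NDMA and 16.0 to 40.8 (median 29.2) after saline, 5 of 8 NDMA livers above the saline range and a difference of 0.65 ± 0.21 on the log2 scale (limma adjusted p = 0.0482). This call was lost in 13 of 16 fits that left out 1 liver, with adjusted p up to 0.102. It was also lost with no filter, without sex and batch terms and with depth as a term (limma adjusted p = 0.0676, 0.0549 and 0.0854). With a pseudocount of 5 the value of 0.576 was under the fold threshold.

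In WT liver the same 5 members were called higher on day 1 as in Mgmt-/- liver. On that day Irf1 had a median of 87.6 (39.6 to 226) after NDMA and of 43.5 (19.7 to 79.0) after saline, with 16 of 26 NDMA livers above the saline range. The log2 fold changes were 1.14 ± 0.16 for Irf1, 0.63 ± 0.18 for Irf7, 0.95 ± 0.25 for Irf8, 1.05 ± 0.13 for Irf9 and 1.05 ± 0.16 for Usp18 (limma adjusted p = 4.11e-07, 0.00713, 0.00355, 2.28e-08 and 9.68e-07). Of all tested genes, 5.01% were called higher. These livers came from 3 library batches, and the values did not hold in each of them. In the batches with 8 against 8 and 12 against 9 livers the 5 members differed by 0.73 to 1.67 and by 1.04 to 1.27 on the log2 scale, and in the batch with 6 against 4 livers Irf1 differed by 0.42, Usp18 by 0.16, Irf9 by 0.08, Irf8 by -0.16 and Irf7 by -0.41. The 6 NDMA livers of that batch include 2 whose sex genes go against their label, and without them the 5 members stayed called on day 1.

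On day 2, 2 members were called higher in WT liver, where 3.33% of all tested genes were. Irf7 had 30.2 to 73.6 (median 37.5) after NDMA and 14.0 to 27.0 (median 20.0) after saline, with no overlap, as in 0.373% of all tested genes, and its log2 fold change was 1.00 ± 0.21 (limma adjusted p = 0.00607). Usp18 had medians of 53.9 and 40.3, with 3 of 8 NDMA livers above the saline range, and its log2 fold change was 0.76 ± 0.22 (limma adjusted p = 0.0354), which missed the test in 9 of 16 fits without 1 liver (adjusted p up to 0.0741). For Irf1 the value was 0.49 ± 0.19 and for Irf8 1.02 ± 0.42 (limma adjusted p = 0.122 and 0.161), and Irf1 passed with DESeq2 (0.61, adjusted p = 0.0441). On day 5 no member was called in WT liver, with 2.22% of all genes called higher. Without the NDMA liver D215014, whose library held 202626 reads, Irf7 (0.92) and Irf8 (1.06) were called (limma adjusted p = 0.0317 and 0.0445), and the genes called higher went from 192 to 474. Irf7 came nearest, at 1.12 ± 0.32 (limma adjusted p = 0.0565), and passed the test with edgeR (adjusted p = 0.0304) and with DESeq2 (adjusted p = 0.0131), with Irf7 and Irf8 being the members with an unadjusted p under 0.05.

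At week 10 and month 10 limma called no member in WT liver, nor did edgeR or DESeq2. Of all tested genes, 0.0249% and 0% were called higher at these times. Irf8 was not tested at week 10, where its WT livers held 0 to 8.99 normalized counts. At week 10 no member had an unadjusted p under 0.05, and at month 10 only Usp18 did, at 1.04 ± 0.35 on the log2 scale (limma adjusted p = 0.554), medians of 18.2 after NDMA and 7.29 after saline, and 1 of 13 NDMA livers above the saline range. The 8 WT NDMA livers of day 2, day 5 and week 10 held 7936248, 7547527 and 12157317 reads in all, fewer than the 25153453, 26104897 and 20640693 of the 8 Mgmt-/- NDMA livers of the same times. For Irf8, for example, the median WT NDMA library held 10, 9 and 2.5 reads at these times and the median Mgmt-/- NDMA library 84.5, 87.5 and 17.5.

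**Figure D2:**
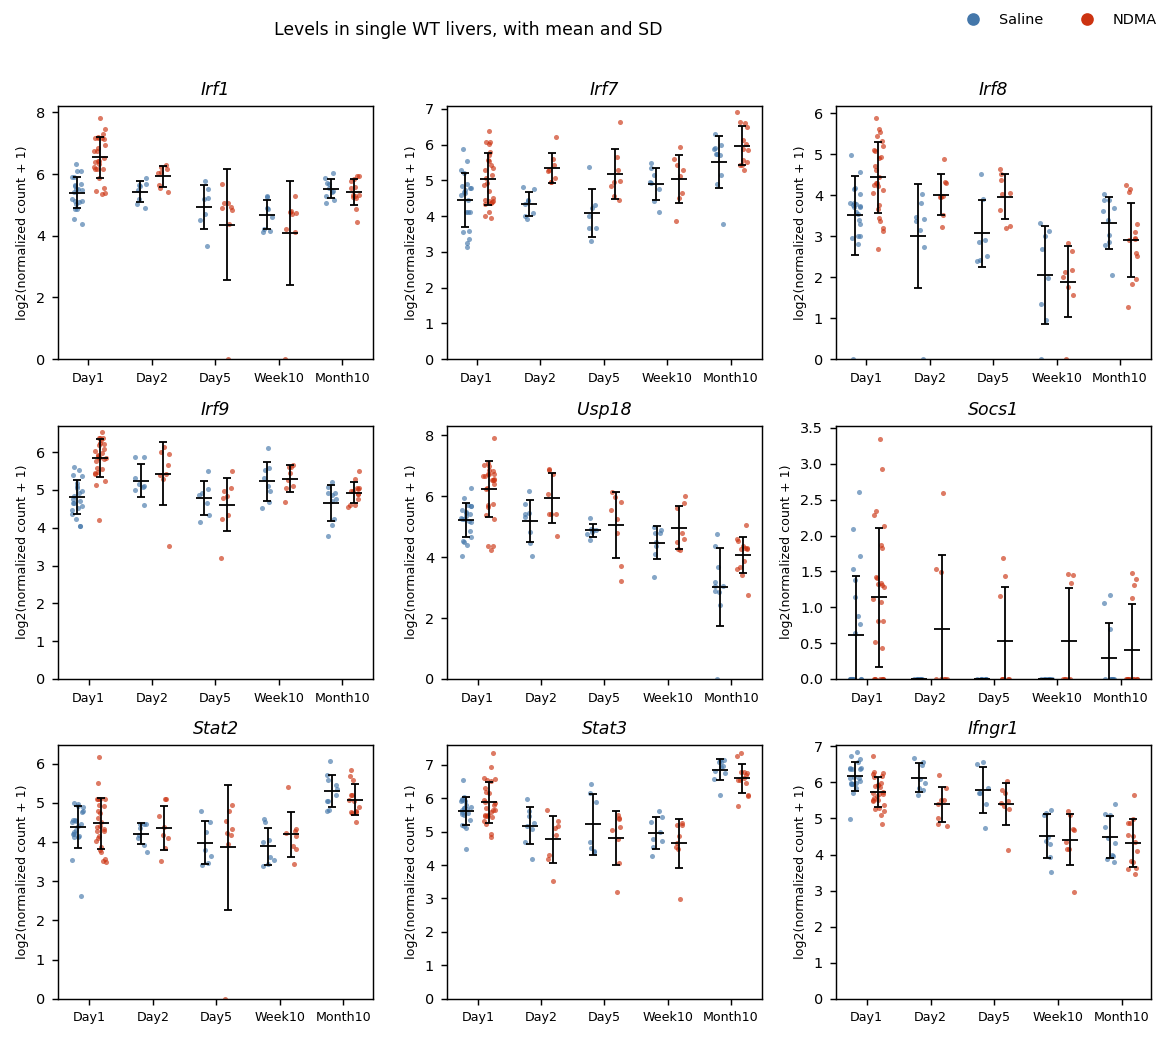
Levels of the 9 genes in single WT livers, as log2(normalized count + 1) on the vertical axis, by time of collection, with saline in blue and NDMA in red. Each point is 1 liver and the black marks are the mean and SD. Irf7 does not overlap between treatments at Day2, and from Week10 on the treatments overlap for every gene.

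**Figure D3:**
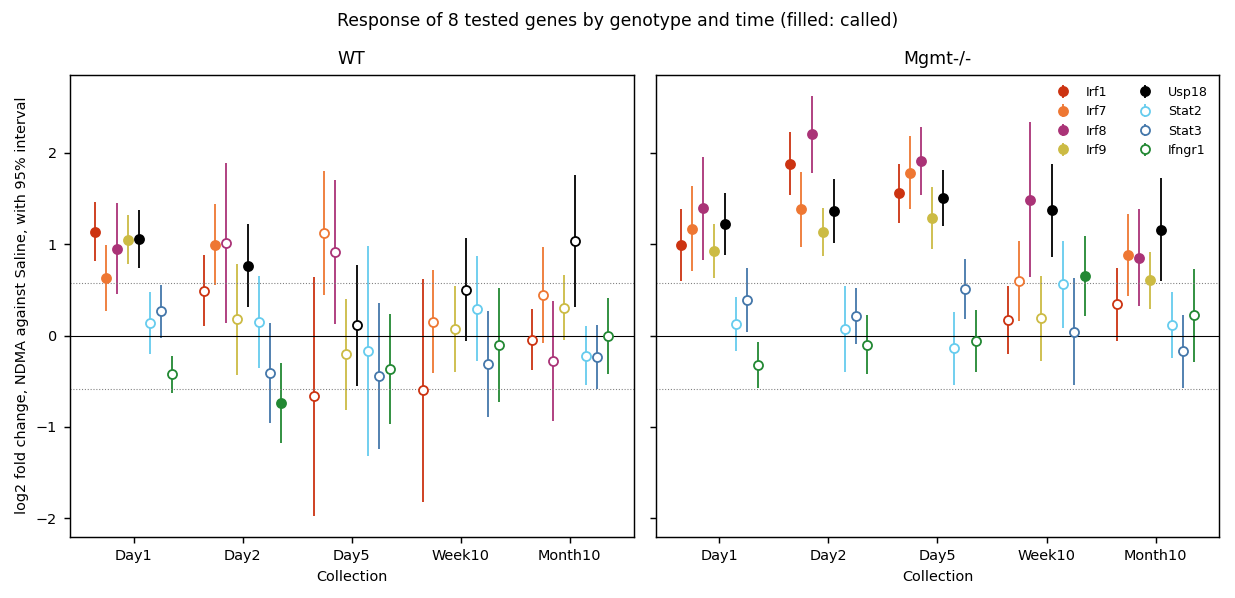
Log2 fold change of NDMA against saline (vertical axis) with its 95% interval for the genes tested at each time (8, and 7 at WT Week10, without Irf8), in WT (left) and Mgmt-/- (right), with filled points for calls and dotted lines at the fold threshold of 0.58 in both directions. Usp18 and Irf8 are filled at all 5 times in Mgmt-/- liver, and no point is filled in WT liver after Day2.

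The difference between the genotypes was tested itself, as the genotype by treatment term in edgeR on whole reads. On day 2 it was 1.29 ± 0.28 for Irf1 and 1.47 ± 0.40 for Irf8 on the log2 scale (edgeR adjusted p = 0.00457 and 0.0271), a larger difference after NDMA in Mgmt-/- liver, where 3.94% of all genes passed. On day 5 it was 1.65 ± 0.32 for Irf1, 1.31 ± 0.30 for Irf9 and 1.02 ± 0.29 for Usp18 (edgeR adjusted p = 0.00103, 0.00691 and 0.0468), where 2.15% of all genes passed. Without sex and batch terms Irf8 on day 2 (1.37) and Usp18 on day 5 (0.89) did not pass (edgeR adjusted p = 0.0504 and 0.188). Irf7 passed on neither day, with 0.59 and 0.71 (edgeR adjusted p = 0.372 and 0.355). No member passed on day 1, at week 10 or at month 10, with edgeR or with DESeq2. The members with an unadjusted p under 0.05 numbered 0, 2 and 1 at these times, Irf8 and Usp18 at week 10 and Irf8 at month 10. The shares of all genes that passed were 0.00963%, 5.79% and 1.53%. With DESeq2 the genes that passed on day 1 were 9 above and 99 below 0 in place of 1 in all, and with the batches that hold both genotypes alone those of month 10 were 1 above and 5 below 0 in place of 147 in all. On days 2 and 5 and at week 10 the genotypes came from different batches, so that neither the level nor the difference in response between genotypes can be told apart from one between batches.

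Within Mgmt-/- liver, taken over both batches, the response to NDMA was smaller at the late times than at the early ones for 3 members. The mean log2 fold change of week 10 and month 10 minus that of days 1, 2 and 5 was -1.24 ± 0.20 for Irf1, -0.72 ± 0.24 for Irf7 and -0.71 ± 0.15 for Irf9 (limma adjusted p = 7.09e-07, 0.0267 and 0.000214). For Ifngr1 the difference was 0.59 ± 0.19, in the other direction (limma adjusted p = 0.0193), and did not pass with equal library totals (adjusted p = 0.0655). For Irf8 it was -0.67 ± 0.28 and for Usp18 -0.11, and neither passed (limma adjusted p = 0.0994 and 0.8). Of all genes, 14.2% passed. The late livers came from 1 batch, which also held 4 day 1 livers a group but none of days 2 and 5. In that batch the day 1 values were 0.45 for Irf1, 0.60 for Irf7 and 0.52 for Irf9. Those of week 10 and month 10 were 0.17 and 0.34, 0.60 and 0.88, and 0.19 and 0.61. Whether the response differed between batches was not tested. In WT liver Irf8 passed the late against early test, with -1.24 ± 0.36 (limma adjusted p = 0.0282), where 4.33% of all genes did. Its means at WT week 10 were 3.2 after NDMA and 4.33 after saline, under the minimum of 5 for a test at that time alone, and it entered this comparison through its level at other times. From day 1 to day 2 and from day 2 to day 5 no member changed its response in Mgmt-/- liver by limma, where 0.0198% and 0.00991% of all genes passed, and the members with an unadjusted p under 0.05 numbered 1, Irf1, and 0. No member differed in its response between females and males by limma, in WT (0.209% of all genes) or in Mgmt-/- liver (0.0396%). On WT days 2 and 5 and at WT week 10 the male livers made up 1 batch and the female livers another, so that a difference between the sexes is also one between these batches. Unadjusted p under 0.05 was reached by Usp18 and Ifngr1 in WT and by Ifngr1 in Mgmt-/- liver.

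The 9 genes were next compared over single livers, to see whether livers of 1 treatment and genotype that stood high in one also stood high in another. Each value was taken as its deviation from the mean of its time and batch, with sex as a term, and all 36 pairs were tested in each of 4 sets of livers, with permutations within time and batch and p-values adjusted over all pairs and sets. In the 49 Mgmt-/- NDMA livers 7 pairs were correlated, all with r above 0. The highest r were 0.64 for Irf1 and Irf8 (rho 0.60), 0.57 for Stat2 and Stat3 (rho 0.44) and 0.56 for Irf1 and Socs1 (rho 0.48). Their permutation p-values for r were 3e-05, 0.00063 and 0.0004 before adjustment and 0.00432, 0.0154 and 0.0154 after it, and the adjusted values for rho were 0.00144, 0.0359 and 0.035. Without the 2 livers farthest from the median of the first gene these r were 0.57, 0.46 and 0.50. The lowest r were -0.37 for Stat3 and Usp18, -0.29 for Stat2 and Ifngr1 and -0.26 for Stat3 and Irf9 (permutation adjusted p = 0.166, 0.355 and 0.359), and none of these passed. Irf1 and Irf8 were also correlated within the early and the late livers taken apart (r = 0.74 over 28 and 0.56 over 21 livers). For Irf9 and Usp18 r was 0.48 and 0.46 without 2 livers (permutation adjusted p = 0.0331), while their rho of 0.39 did not pass (permutation adjusted p = 0.0703). Pairs with Socs1 rest on 0 to 9 reads a library.

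**Figure D4:**
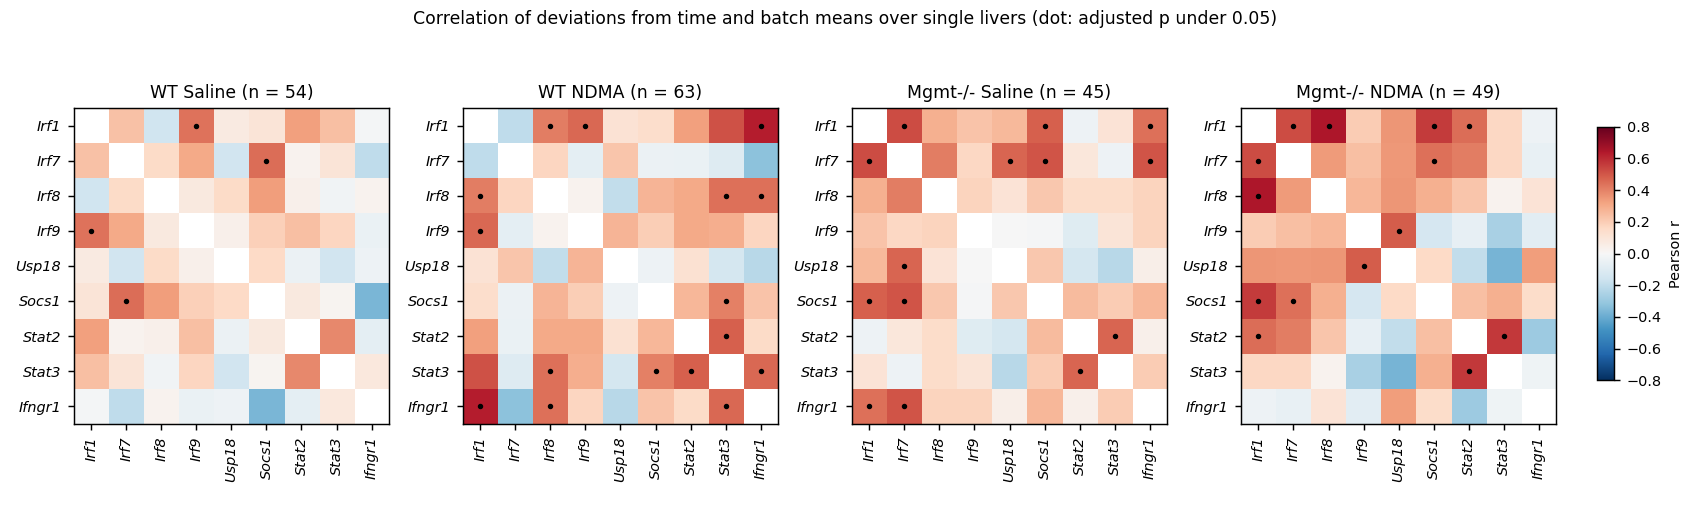
Pearson r of every pair of the 9 genes over single livers, in 4 sets by genotype and treatment, with both axes listing the genes and colour giving r. A dot marks an adjusted p under 0.05, which 2 pairs reached in WT saline, 8 in WT NDMA, 7 in Mgmt-/- saline and 7 in Mgmt-/- NDMA livers.

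**Figure D5:**
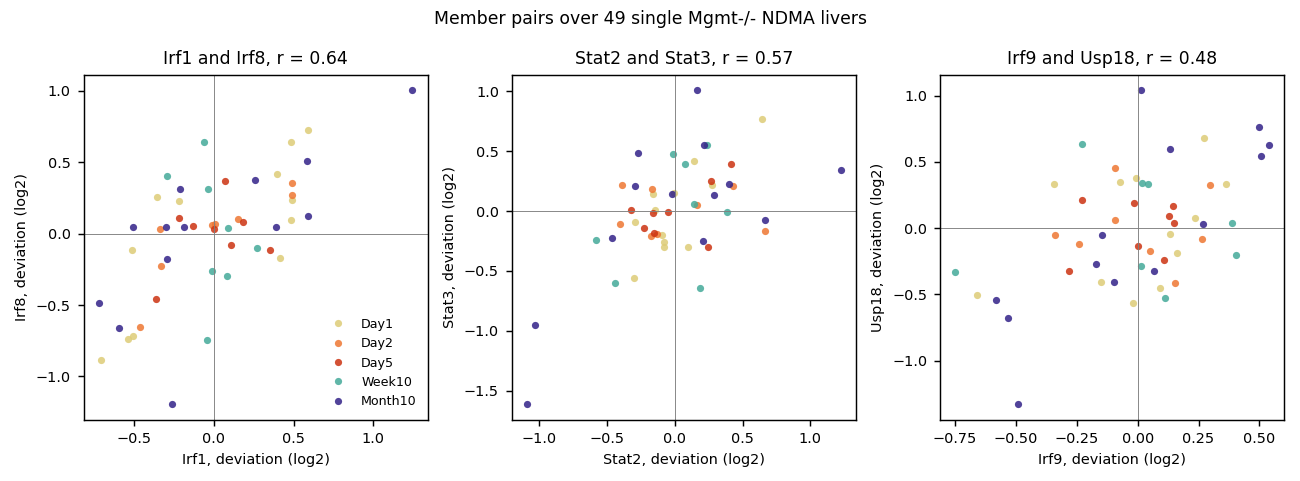
Deviations of 3 pairs of genes from their time and batch means (log2 scale on both axes) in the 49 Mgmt-/- NDMA livers, coloured by time. Irf1 and Irf8 rise together (r = 0.64), as do Stat2 and Stat3 (r = 0.57) and Irf9 and Usp18 (r = 0.48).

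In the other sets of livers partly different pairs passed. In the 63 WT NDMA livers 8 pairs did, led by Irf1 and Ifngr1 (r = 0.63, rho 0.51, permutation adjusted p = 0.0154 and 0.032), whose r fell to 0.43 without the 2 livers farthest from the median. In the 45 Mgmt-/- saline livers 7 pairs passed, 4 of them with Irf7, among which were Irf1 and Irf7 (r = 0.52, rho 0.47, permutation adjusted p = 0.0258 and 0.035) and Irf7 and Usp18 (r = 0.47, rho 0.47, permutation adjusted p = 0.03 and 0.035). In the 54 WT saline livers 2 pairs passed, Irf1 with Irf9 (r = 0.43, rho 0.47, permutation adjusted p = 0.0368 and 0.035) and Irf7 with Socs1 (r = 0.45, rho 0.35, permutation adjusted p = 0.0154 and 0.0558). Stat2 with Stat3 passed in 3 of the 4 sets, with r of 0.48, 0.47 and 0.57, although its rho of 0.28 in Mgmt-/- saline livers did not (permutation adjusted p = 0.272). Without the 2 livers farthest from the median these r fell to 0.29, 0.34 and 0.46, and over the 21 late WT NDMA livers alone r was -0.32. Differences in r between the sets were not tested.

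Over the 49 Mgmt-/- NDMA livers, and among the other genes whose mean there was 20 or more (6083, or 6084 for Socs1), the transcripts most like each member were named by r alone, as a description over livers that share library batches and with no p. For Irf1 they were the guanylate binding protein genes Gbp4 (r = 0.79) and Gbp7 (0.72) and the GTPase gene Gm12250 (0.73). For Irf8 they were Irf1 (0.64), Gbp4 (0.60) and the chemokine gene Cxcl16 (0.59). For Usp18 they were Rtp4 (0.73), Ube2l6 (0.72) and Ifi35 (0.72), for Irf9 Ube2l6 (0.59), Zfp110 (0.58) and Rtp4 (0.56), and for Irf7 Herc6 (0.70), Arpc4 (0.68) and Stat6 (0.65). UBE2L6 and HERC6 attach ISG15 to proteins, the step that USP18 undoes. Stat3 stood close to Fn1 (0.81) and Uso1 (0.80), and Stat2 to Ccnd3 (0.72), Prkcsh (0.71) and Uggt1 (0.70). Ifngr1 stood close to Cd300a (0.69) and Tuba1b (0.69), and Socs1 to Zc3h7a (0.63), D10Wsu102e (0.61) and Tgm2 (0.61). The median r with all these genes was between -0.05 and 0.04 for the 9 members, and the 95th percentile was 0.26 for Irf8 and 0.60 for Stat3, so that a given r stands out less for Stat3 than for Irf8. The r of 0.57 between Stat2 and Stat3 lay below that percentile for Stat3 and above the one for Stat2, which was 0.54.

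The other genes of the pathway were counted by list. Of the 10 interferon ligand genes, 3 were among the Mgmt-/- data and 2 among the WT data, and none reached a mean of 5 in any comparison. Of the 8 receptor and kinase genes, 7 were tested in Mgmt-/- liver, and Il10rb, a chain shared by interleukin 10 and interferon lambda receptors, was the one called, higher on day 2 (0.63 ± 0.18), day 5 (0.63 ± 0.21) and week 10 (0.94 ± 0.28), where 12.4%, 11.1% and 7.27% of all genes were called higher. Of the 4 other STAT genes 3 were tested in Mgmt-/- liver, and none was called higher. There 1, 2 and 1 of the 3 were called lower on days 1, 2 and 5, where 8.64%, 7.5% and 6.71% of all genes were. Stat5a, which with Stat5b carries the growth hormone signal in liver, was lower on day 1 in WT (-0.59 ± 0.15) and Mgmt-/- (-1.13 ± 0.25) and on day 2 in Mgmt-/- (-0.69 ± 0.23), and Stat5b was lower in Mgmt-/- on days 2 (-1.07 ± 0.23) and 5 (-0.76 ± 0.25). Of the other IRF genes 4 were tested on day 2 in Mgmt-/- liver, and 1 of them, Irf5, was called higher (0.98 ± 0.22), where 12.4% of all genes were.

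Among the 18 other negative regulators, 2 were called higher and 1 lower on day 2 in Mgmt-/- liver, of 16 tested, against 12.4% of all genes called higher, a share close to that of the list. The list median was 0.19 and that of all genes 0.03. The higher ones were the phosphatase genes Ptpn1 (0.91 ± 0.17) and Ptpn6 (0.91 ± 0.20), and Ptpn1 was also higher on day 5 (0.72 ± 0.21). Socs2, a target of growth hormone signalling, was lower in Mgmt-/- liver on days 1 (-0.98 ± 0.23), 2 (-0.98 ± 0.34) and 5 (-1.47 ± 0.50) and in WT liver on day 1 (-1.23 ± 0.19), and its relative Cish was lower in Mgmt-/- on day 5 (-1.38 ± 0.41) and in WT on day 1 (-0.82 ± 0.22). Of all genes tested on day 1, 4.19% were called lower in WT liver. The ISG15 conjugation list has 4 genes. On days 2 and 5 in Mgmt-/- liver 3 of 4 were called higher, where 12.4% and 11.1% of all genes were, with medians of 1.38 and 1.35 against 0.03 and 0.03 over all genes. Isg15 itself, the modifier, was called higher at all 5 times, with log2 fold changes of 1.88 ± 0.27, 2.29 ± 0.33, 2.56 ± 0.32, 0.89 ± 0.29 and 1.11 ± 0.28. In WT liver Herc6 on day 1 (0.92 ± 0.22) and Isg15 on day 2 (2.13 ± 0.41) were called.

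The interleukin 6 and STAT3 axis list has 11 genes. In Mgmt-/- liver 3 of 9 tested were called higher on day 1, where 9.06% of all genes were. On days 2 and 5 it was 4 of 10 and at week 10 it was 5 of 9, where 12.4%, 11.1% and 7.27% were. Those called lower numbered 2, 2, 1 and 1 on days 1, 2 and 5 and at week 10. Of all genes, 8.64%, 7.5%, 6.71% and 3.88% were called lower at these times. Stat3 itself was not called. The acute phase genes Saa1 (3.55 ± 0.23) and Saa2 (2.89 ± 0.28), Lcn2 (3.87 ± 0.33) and Osmr, the oncostatin M receptor gene (1.56 ± 0.40), were the ones called higher on day 2. Lcn2, which encodes the iron-carrier binding protein lipocalin 2, was called higher at every time in Mgmt-/- liver, with 4.74 ± 0.47 at week 10 and 2.68 ± 0.63 at month 10. Lifr, a receptor subunit of the same cytokine family, was lower at days 1, 2 and 5 in both genotypes (for Mgmt-/-, -0.76 ± 0.18, -1.52 ± 0.38 and -2.89 ± 0.20) and at week 10 in Mgmt-/- (-1.98 ± 0.26). In WT liver 3 of 9 tested genes were called higher on days 1 and 2 and 1 on day 5, against 5.01%, 3.33% and 2.22% of all genes. Those called lower in WT liver numbered 1, 2 and 2 on these days. Of all genes, 378 of 9028, 249 of 8568 and 120 of 8654 were called lower.

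Markers of other cells were called in both directions. In whole liver more cells of a type and more RNA per cell cannot be told apart. The 7 markers of recruited monocytes and macrophages were called higher in 3 of 5 tested on day 1, 5 of 5 on day 2 and 6 of 6 on day 5 in Mgmt-/- liver, and late in 4 of 4 (week 10) and 2 of 3 (month 10). Their summed level on day 2 was 930 to 3226 (median 1258) after NDMA and 249 to 369 (median 349) after saline, with Lyz2 the most abundant and no marker at 0 in all livers. The 9 markers of T and NK cells were called higher in 4 of 5 tested on day 1, 5 of 5 on days 2 and 5 and 1 of 4 at week 10. Their sum on day 5 was 245 to 535 (median 349) after NDMA and 27.3 to 47.1 (median 38.4) after saline, with Gzma the most abundant. Of the 7 Kupffer cell markers 1 was called higher and 3 lower on day 1, while 4 were called higher on day 2, 3 on day 5 and 2 at week 10. None of the 7 dendritic cell markers was tested. Their sums on day 2 were 6.47 to 32.4 (median 19.5) after NDMA and 6.39 to 14.4 (median 9.62) after saline. On day 5 they were 6.23 to 31.4 (median 19.8) after NDMA and 0.91 to 10.2 (median 7.28) after saline. Of the B and plasma cell markers 1 of 3 tested was called lower on day 1 (list median -0.79) and none of 2 on days 2 and 5. At week 10 the dendritic cell markers summed to 6.82 to 26.4 (median 14.6) after NDMA and 2.8 to 10.4 (median 4.43) after saline. Of the B and plasma cell markers 1 of 2 tested was called higher at that time, with sums of 18.8 to 77.6 (median 32.6) and 5.66 to 16.4 (median 13.8) and Jchain the most abundant. Neutrophil markers were lower in 3 of 4 tested on days 1 and 2 and 4 of 4 on day 5 and higher in 2 of 4 at week 10. Of the 5 hepatocyte markers 3 were lower on day 1, 3 on day 2, 1 on day 5 and 1 at week 10, with list medians of -0.80, -0.69, -0.48 and -0.30 on the log2 scale. Of the 5 endothelial markers tested, 1 was higher and 3 lower on day 1, 2 were higher and 1 lower on day 2, and 1 was higher and 2 lower on day 5. Of 4 tested markers of red cell precursors 4, 2 and 3 were lower on days 1, 2 and 5, and of 4 stellate cell markers 3, 2 and 1. At week 10, 1 stellate cell marker and 1 endothelial marker were called higher and none lower, with list medians of 0.27 and 0.15 on the log2 scale. Of all genes tested in Mgmt-/- liver, 8.64%, 7.5%, 6.71% and 3.88% were called lower on days 1, 2 and 5 and at week 10. The shares called higher were 9.06%, 12.4%, 11.1% and 7.27%, and 4.75% at month 10. In WT liver the monocyte and macrophage markers were called higher in 3 of 3 on day 1, 2 of 3 on day 2 and 1 of 3 on day 5, and those of T and NK cells in 3 of 4, 4 of 5 and 3 of 4, beside 5.01%, 3.33% and 2.22% of all genes, while none of the 2 tested monocyte and macrophage markers was called at week 10 and month 10 and none of the 2 tested T and NK cell markers at week 10. At month 10 no T and NK cell marker was tested. Stellate cell markers in WT liver were lower in 2, 2 and 1 of 4 on days 1, 2 and 5 (list medians -0.73, -0.90 and -0.72). Of 7 Kupffer cell markers 2 were higher and 1 lower on day 1, 1 higher and 2 lower on day 2, and 1 higher on day 5. In WT liver 1 of 5 endothelial markers was lower on day 1 and 1 of 5 hepatocyte markers on day 2. Of all genes tested, 4.19% and 2.91% were called lower on days 1 and 2, and 120 of 8654 on day 5. The part of these cells in the levels of Irf1, Irf7, Irf8, Irf9 and Usp18 was not tested.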

How the data were processed

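Transcript ends were sequenced from liver RNA. Of 214 labelled samples 213 had values, and the other was not analysed here. According to their notes, the authors used STAR and GRCm38 (mm10) for alignment and ESAT for counting per gene, divided the counts by 1 DESeq2 size factor per library for each genotype by itself, and deposited these values, a signal called normalized counts here. In 209 columns all values were whole multiples of 1 step (tolerance 0.1), which gave whole reads. The other 4 were left out of count tests.

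The rows of the 9 members were taken by symbol. NDMA was compared with saline by limma 3.58.1 (trend and robust) in R 4.3.3 on log2(value + 1), over all genes with a mean of at least 5, with sex and library batch as terms. P-values were two-sided and adjusted by the Benjamini-Hochberg method over all genes tested. The genotype by treatment term was tested on the whole reads by the quasi-likelihood test of edgeR 4.0.16 with TMM factors, with an SE taken from its F statistic. Correlations used 100000 permutations within time and batch. The 2 libraries with Kap over 1000 were left out. Scripts were tested on simulated counts.

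Every member is named. From each other list at most the 4 called genes with the largest log2 fold change per comparison were eligible to be named, and for each member the 3 genes with the highest r over Mgmt-/- NDMA livers. Some genes eligible by these rules are not reported here. The members and lists were chosen with earlier results of these data known. The alternatives tried were other pseudocounts (0.5, 5), other filters (none, a mean of 20), no covariates, equal library totals, depth as a term, edgeR, DESeq2 1.42.0 without shrinkage, no fold threshold, single batches, and leaving out libraries.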

Additional observations from a re-analysis of the deposited data

Results flagged for a closer look

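Differences of the NDMA response between times or genotypes that passed their own test were as follows. Late minus early, limma gave -1.24 for Irf8 in WT liver and -1.24 for Irf1, -0.72 for Irf7, -0.71 for Irf9 and 0.59 for Ifngr1 in Mgmt-/- liver, all on the log2 scale. Between genotypes, edgeR gave 1.29 for Irf1 and 1.47 for Irf8 on day 2, and 1.65 for Irf1, 1.31 for Irf9 and 1.02 for Usp18 on day 5. Of these, Irf8 and Usp18 did not pass without sex and batch terms (edgeR adjusted p = 0.0504 and 0.188). On both days the genotypes came from different batches. The late Mgmt-/- livers came from another batch than the Mgmt-/- livers of days 2 and 5.

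In 9 of 117 groups of 4 to 10 livers 1 liver stood apart from the others by Dixon's 95% limit. That limit is passed by chance in about 1 of 20 groups when values are normally distributed. Normalized counts need not be, and each of these livers was the highest of its group. For Irf7 these were a WT NDMA liver of day 2 (73.6 normalized counts, the next at 47), a WT NDMA liver of day 5 (98.4, the next at 49.3) and a WT saline liver of day 5 (40.2, the next at 18.7). For Stat2 it was a WT NDMA liver of week 10 (41.1, the next at 19.2). The 3 WT NDMA livers of days 2 and 5 and week 10 had libraries of 150038, 202626 and 270673 reads, which are 3 of the 4 WT libraries under 300000 reads. For Stat3 it was the Mgmt-/- saline liver D209001 of week 10 (148, the next at 61.5). For Socs1 they were single livers at 1.91, 2.73 and 2.09 in the Mgmt-/- saline groups of day 2, day 5 and week 10 and at 5.04 in WT NDMA at day 2, each a matter of at most 3 reads.

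Outside the comparisons, the 2 libraries left out of the Mgmt-/- saline group of day 5 held 6147 and 7562 normalized counts of Kap, a kidney transcript, and no other library passed 13.9.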

How the results depend on the processing

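The 5 members called higher in Mgmt-/- liver on days 1, 2 and 5 were called under every alternative run for those days, among them the fits that left out 1 library on days 2 and 5 (5 to 5 members). Called values kept their sign under the alternatives that fitted a model to all genes. Taken in single batches without a test, they did not on WT day 1, where the batch with 6 against 4 livers gave -0.41 for Irf7 and -0.16 for Irf8. At week 10 the count of 3 ranged from 2 to 5 without 1 liver, with the 5 reached without the saline liver D209001, and at month 10 the count of 4 was 2 without sex and batch terms, where Irf7 had an adjusted p of 0.0597 and Irf8 of 0.0502. On WT day 2 the count of 2 was 1 with no filter, 1 without sex and batch terms, 1 with edgeR and 3 with DESeq2 (Irf1 added, adjusted p = 0.0441), and 1 to 2 without 1 liver. On WT day 5 the count of 0 was 1 with a pseudocount of 5, a mean of at least 20, edgeR or DESeq2 (Irf7 in each), 2 without libraries under 300000 reads, and 0 to 2 without 1 liver, with the 2, Irf7 and Irf8, reached without D215014. At WT week 10 it was 0 to 0. The count of 1 for the late against early difference in WT was 0 with a mean of at least 20, where Irf8 was not tested. The genotype by treatment count on day 2 was 1 in place of 2 without sex and batch terms (Irf8 adjusted p = 0.0504) and 3 with DESeq2 (Irf9 added, 0.70, adjusted p = 0.0429). With pairs of members of a mean of at least 20 only, 1 pair in WT saline and 4 in WT NDMA livers passed in place of 2 and 8, over 21 pairs in place of 36. Of single member values outside fits that left out a liver, 1081 kept their side of the threshold, 19 lost a call and 18 gained one. Among these, Irf7 on WT day 1 and Irf9 at Mgmt-/- month 10 fell under the fold threshold with a pseudocount of 5, Usp18 lost the genotype by treatment call of day 5 without sex and batch terms (adjusted p = 0.188), and Irf8 gained the late against early call in Mgmt-/- liver with a pseudocount of 5 (-0.79, adjusted p = 0.00294). With equal library totals the median of all genes moved by 0.19, 0.16, 0.15 and 0.20 on the log2 scale at Mgmt-/- day 1, day 2, day 5 and week 10, and the share of calls that were higher went from 51.2%, 62.2%, 62.4% and 65.2% to 76.2%, 80.3%, 77.9% and 86.8%. The same scaling took that share from 54.5% to 65.3% on WT day 1 and from 53.4% to 68% on WT day 2, and the share of late against early differences above 0 from 52.5% to 32.6% in WT and from 56% to 44.7% in Mgmt-/- liver. On WT day 5 edgeR took the share from 61.5% to 43.7%. With total reads as a term the median of all genes moved by 0.11 on WT day 2 and by 0.20 on WT day 5, and the genes called higher and lower went from 285 and 249 to 161 and 123 on WT day 2 and from 192 and 120 to 33 and 7 on WT day 5. On WT day 5 they were 104 and 46 without sex and batch terms, 268 and 346 with edgeR and 349 and 388 with DESeq2. A mean of at least 20 took the genes called higher from 452 to 230 on WT day 1 and from 911, 1170, 1037, 704 and 478 to 551, 721, 634, 414 and 242 at the 5 Mgmt-/- times, with fewer genes tested. Equal totals took them from 911 to 1635 at Mgmt-/- day 1 and from 704 to 1162 at Mgmt-/- week 10, and keeping the 2 libraries with high Kap took them from 1037 to 699 at Mgmt-/- day 5. A pseudocount of 5 took them from 452 to 308 on WT day 1. The genotype by treatment differences above and below 0 went with DESeq2 from 0 and 1 to 9 and 99 on day 1, from 237 and 139 to 417 and 260 on day 2, from 122 and 81 to 258 and 161 on day 5 and from 86 and 61 to 162 and 99 at month 10. With the batches that hold both genotypes alone they were 6 and 9 on day 1 and 1 and 5 at month 10, and without sex and batch terms 24 and 10 at month 10 and 218 and 120 in place of 298 and 220 at week 10. The WT differences by sex, 5 and 14, were 39 and 139 with a mean of at least 20 and 14 and 150 with equal totals. No paired analysis was made, because the labels give each library a number of its own and no pairs. Without the 4 WT libraries under 300000 reads, the genes called higher went from 285 to 461 on WT day 2 and from 192 to 474 on WT day 5, and numbered 2 and 0 with and without them at week 10 and month 10.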
